A study of Mus musculus with 18 samples.

Results

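The angiopoietin and Tie receptor genes are 7 genes of endothelial signalling: Tek, Tie1, Ptprb, Angpt2, Angpt1, Foxo1 and Angptl4. They were taken by gene symbol, and all 7 were found among the 21638 genes of the deposited table. They were followed through 18 RNA sequencing libraries of endothelial cells sorted from the cortex of adult mice by CD31 on their surface and by lack of CD41 and CD45. The libraries fell into 6 groups of 3. Wild-type mice that had a sham operation gave the sham ipsilateral and sham contralateral groups. Wild-type mice with middle cerebral artery occlusion (MCAO), a surgical model of stroke, gave the MCAO ipsilateral group from the side of the occlusion and the MCAO contralateral group from the opposite side. The other two groups were ipsilateral cells of occluded mice with floxed Hdac2 or floxed Ezh2 alleles and Cdh5CreERT2, a tamoxifen-inducible recombinase under the promoter of the endothelial gene Cdh5 (ECKO, for endothelial cell knockout). The labels give tamoxifen at 75 mg per kg for every group, sham and wild-type MCAO mice included, and the design text gives 5 doses from day 0 to day 4. Cells were taken on day 7. The labels do not say whether the wild-type mice carried the recombinase, whether a library came from a single mouse, or whether equal replicate numbers on both sides mark the same animal, so p-values measure the spread between these libraries.

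In the vessel wall, angiopoietin ligands act on the receptor tyrosine kinase TIE2, the product of Tek. Angiopoietin-1, made mainly by pericytes and other cells around the vessel, activates the receptor and favours quiescent, tight endothelium, while angiopoietin-2, made by endothelial cells themselves and stored for rapid release, can block that signal and is known for its part in vessel remodelling and leak. TIE1 is a related receptor that pairs with TIE2 and modulates it, and the phosphatase VE-PTP, the product of Ptprb, removes phosphate from TIE2. Active TIE2 signals through AKT, which keeps the transcription factor FOXO1 out of the nucleus, and FOXO1 in turn drives Angpt2 transcription. Angptl4 encodes a related secreted protein that does not bind TIE2, inhibits lipoprotein lipase, and is induced by hypoxia and by fatty acids through PPAR factors.

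The sequences just upstream of Tek and Foxo1 are shown because both genes stood lower in all MCAO ipsilateral libraries than in all sham ipsilateral libraries, as given further on. They come from RefSeq on build GRCm38.p6, which lists 3 of the 7 members (Tek, Tie1 and Foxo1). Each runs 5′ to 3′ over 250 bases on the gene's strand, at chr4:94739039-94739288 (plus strand) for Tek and chr3:52268087-52268336 (plus strand) for Foxo1. Capitals mark GGAA or its reverse complement TTCC, the core bound by ETS factors, a family that includes regulators of endothelial genes.
Tek: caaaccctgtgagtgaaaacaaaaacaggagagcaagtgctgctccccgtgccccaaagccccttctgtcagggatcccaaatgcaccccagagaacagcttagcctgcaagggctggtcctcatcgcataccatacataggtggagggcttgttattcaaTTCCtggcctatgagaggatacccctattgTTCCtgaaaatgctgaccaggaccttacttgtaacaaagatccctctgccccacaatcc
Foxo1: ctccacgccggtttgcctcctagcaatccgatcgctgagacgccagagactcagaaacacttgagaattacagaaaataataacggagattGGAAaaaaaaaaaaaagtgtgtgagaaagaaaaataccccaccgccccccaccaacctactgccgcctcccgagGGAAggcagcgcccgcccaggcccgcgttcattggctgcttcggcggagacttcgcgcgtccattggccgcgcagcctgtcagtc
The core occurred 2 times upstream of Tek and 2 times upstream of Foxo1, counted on both strands. It occurred 7 times in the listed Tie1 window, but 212 of the 250 bases of that window lie in annotated Tie1 exon. It is a short word: 93.4% of 32851 RefSeq windows of 250 bases held it, with a median of 3 matches. The longer ETS word CCGGAA (12% of windows), the FOXO word GTAAACA (3.17%) and the HIF word ACGTG (16.6%) were searched on both strands as well, and 0 matches were found in these windows of the 3 genes. CCGGAA contains the shorter core. A match is a description of the letters, and its absence says nothing of the factor.

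Depth and sample make-up were checked over the whole table. Total counts ran from 25791401 to 57576255 per library, and a floor of 3 counts was worth 0.0619 to 0.101 CPM (counts per 1e+06 of the TMM-scaled library total), a limit that covers counting error only. MCAO contralateral replicate 1 and Ezh2 ECKO replicate 2 stood apart, with 1889 and 2083 of every 1e+06 counts on olfactory and vomeronasal receptor genes, a measure of diffuse background, against 152 to 716 in the other 16 libraries. The endothelial markers Pecam1 and Cdh5 lay at 198 to 453 and 170 to 542 CPM, and Cldn5 ranged more widely, from 260 to 2369 CPM. The neuronal marker Rbfox3 did not exceed 0.943 CPM and was at 0 in 3 libraries. The leukocyte gene Ptprc, which encodes the CD45 protein gated against, reached at most 6.57 CPM, while Itga2b, which encodes CD41, reached 34.7 CPM. Hdac2 was at 57.6, 85.0 and 87.9 CPM in the libraries labelled Hdac2 ECKO against 68.2 to 96.1 in MCAO ipsilateral libraries. Ezh2 was at 8.41, 12.0 and 19.7 CPM in the libraries labelled Ezh2 ECKO against 4.45 to 7.85. Hdac2 thus overlapped between the groups, and Ezh2 lay higher under its own label. The counts cover whole genes, so a transcript missing floxed exons would still count, and directions that involve these groups rest on the labels.

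All 7 members passed the count filter, which asked for at least 10 counts in at least 3 libraries and kept 17094 genes. Levels between genes were compared per kilobase of feature length (CPM per kb). Tek was the most abundant member, at 119 CPM per kb over the 18 libraries, higher than 96.7% of the tested genes. Ptprb followed at 75.2, Tie1 at 18.6 and Foxo1 at 10.5 CPM per kb. The ligand genes were far lower, with Angpt2 at 4.06, Angptl4 at 3.52 and Angpt1 at 0.267 CPM per kb. The receptors and the phosphatase thus stood well above the ligands in these endothelial cells. Together with Foxo1 they also spanned less, with CPM spanning 2.09-fold for Ptprb, 2.42-fold for Tie1, 2.48-fold for Foxo1 and 2.77-fold for Tek between the lowest and highest library, against 7.53-fold for Angpt2, 33.0-fold for Angpt1 and 76.3-fold for Angptl4. These spans are not alike in depth, as Ptprb had 29135 to 49948 counts per library and Angpt1 had 6 to 158. The span of Angptl4 rests on a lowest library of 20 counts (0.539 CPM), with the next lowest at 2.59 CPM. The part of counting error in the spans was not tested.

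**Figure D1:**
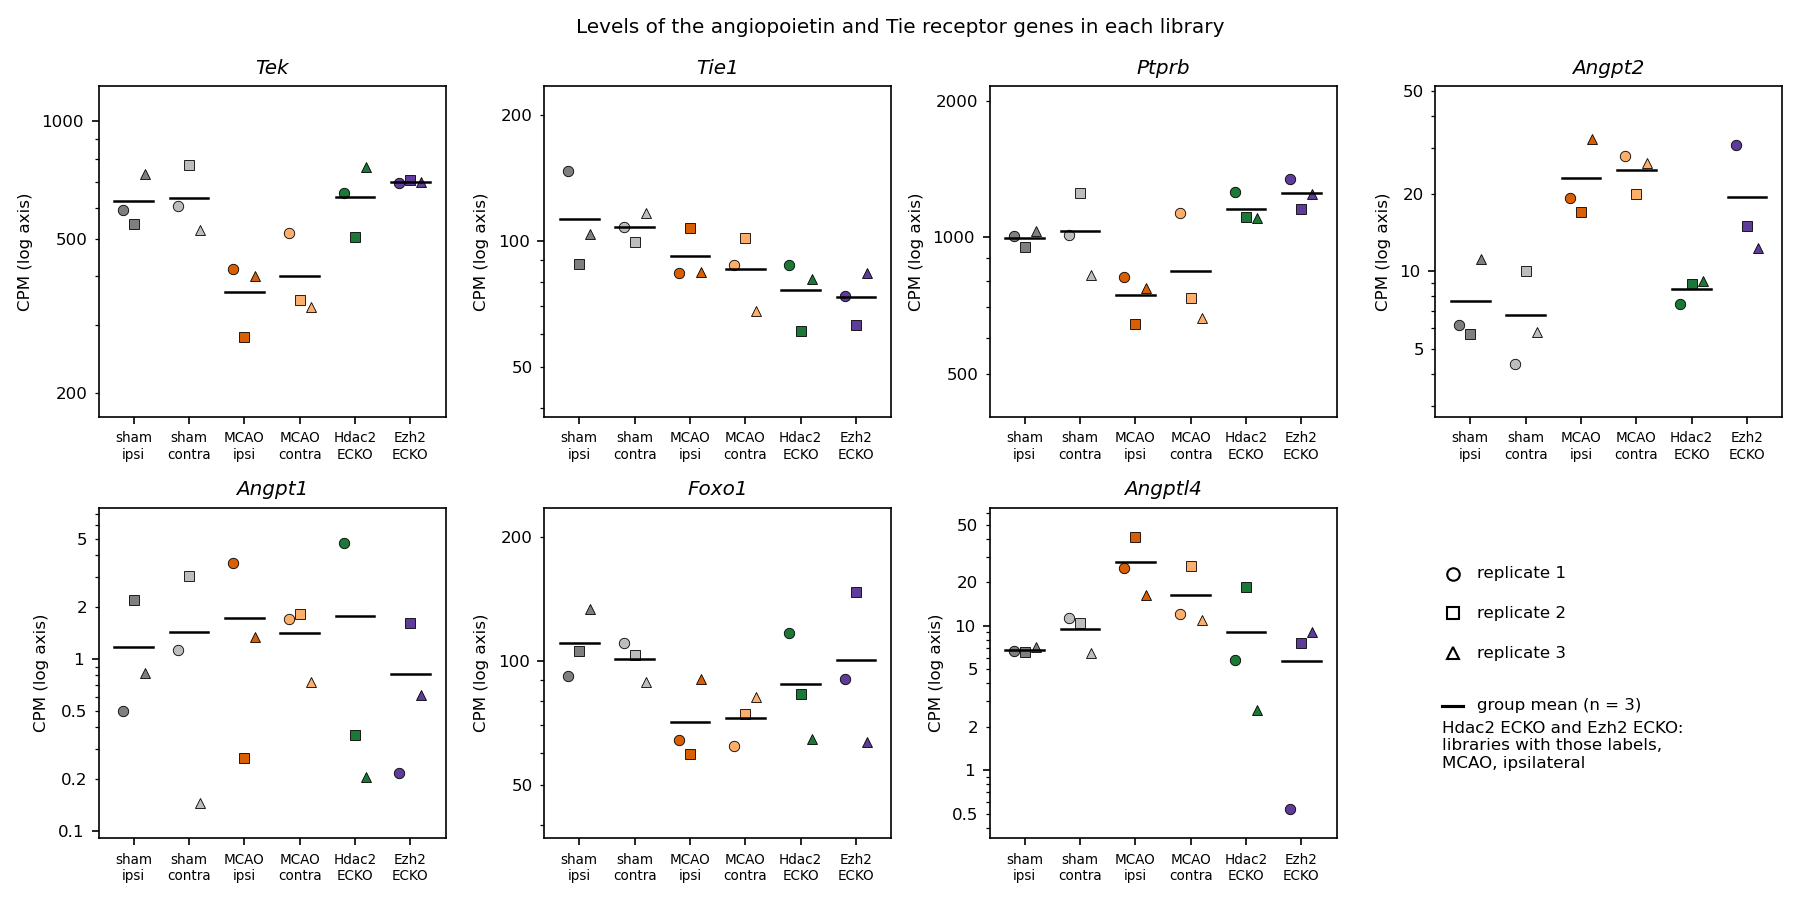
CPM of each of the 7 members in each of the 18 libraries, by group, on log axes. Circles, squares and triangles are replicates 1, 2 and 3, and a line marks the mean of the 3 libraries. The 6 MCAO libraries of Angpt2 lie between 16.9 and 32.7 CPM, above the 6 sham libraries, and the 6 MCAO libraries of Tek lie between 278 and 518 CPM, below the 6 sham libraries.

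The receptor genes were examined first. Tek (chromosome 4, 94739289 to 94874976, plus strand, GRCm38) stood at 593, 544 and 734 CPM in sham ipsilateral libraries and at 416, 278 and 400 CPM in MCAO ipsilateral libraries. On the contralateral side it stood at 606, 771 and 527 CPM in sham and at 518, 348 and 333 CPM in MCAO. Sham and MCAO did not overlap on either side, although MCAO contralateral replicate 1 lay just under the lowest sham library. In the Hdac2 ECKO group Tek had 655, 505 and 763 CPM. Those labelled Ezh2 ECKO had 697, 706 and 697 CPM, the narrowest group. By group mean the order from high to low was Ezh2 ECKO (700 ± 5.21, SD, n = 3 here and in the other groups), Hdac2 ECKO (641 ± 130), sham contralateral (635 ± 125), sham ipsilateral (624 ± 98.6), MCAO contralateral (400 ± 103) and MCAO ipsilateral (365 ± 75.3). Neighbours in this order overlapped, apart from a gap between sham ipsilateral and MCAO contralateral, 544 against 518 CPM at their nearest libraries, and the MCAO contralateral library at 518 CPM also exceeded the lowest Hdac2 ECKO library.

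Tie1 (chromosome 4, 118471191 to 118490061, minus strand) had lower means after occlusion on both sides, as Tek had, but not higher ones under the ECKO labels. It stood at 147, 88.3 and 104 CPM in sham ipsilateral, 108, 99.4 and 117 in sham contralateral, 84.2, 108 and 84.4 in MCAO ipsilateral and 87.7, 102 and 68.0 in MCAO contralateral libraries. These groups overlapped on both sides. Libraries labelled Hdac2 ECKO had 87.8, 60.8 and 81.1 CPM, and those labelled Ezh2 ECKO had 73.9, 62.9 and 84.0 CPM. The Ezh2 ECKO libraries lay just below those of MCAO ipsilateral, 84.0 against 84.2 CPM at the nearest. In the order of means, from 113 ± 30.3 CPM in sham ipsilateral down to 73.6 ± 10.5 in Ezh2 ECKO, every pair of neighbours overlapped.

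Ptprb (chromosome 10, 116275523 to 116389535, plus strand) resembled Tek. It stood at 1007, 950 and 1033 CPM in sham ipsilateral libraries and 818, 643 and 771 CPM in MCAO ipsilateral libraries, which did not overlap. On the contralateral side sham had 1010, 1252 and 827 CPM, and MCAO had 1129, 733 and 664 CPM, which overlapped through the high MCAO replicate 1. Hdac2 ECKO libraries had 1259, 1107 and 1100 CPM and those labelled Ezh2 ECKO had 1347, 1155 and 1246 CPM, all above the MCAO ipsilateral libraries. By mean the order was Ezh2 ECKO (1249 ± 95.8), Hdac2 ECKO (1155 ± 89.7), sham contralateral (1030 ± 213), sham ipsilateral (997 ± 42.6), MCAO contralateral (842 ± 251) and MCAO ipsilateral (744 ± 90.5). Neighbours in this order overlapped.

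On the injured side, the ligand genes Angpt2 and Angptl4 had the largest fold changes of the members between MCAO and sham. Angpt1, the other ligand gene, overlapped between all groups. Angpt2 (chromosome 8, 18690263 to 18741562, minus strand) stood at 6.15, 5.72 and 11.1 CPM in sham ipsilateral and 4.34, 10.0 and 5.81 CPM in sham contralateral libraries. It stood at 19.3, 16.9 and 32.7 CPM in MCAO ipsilateral and 27.9, 19.8 and 26.2 CPM in MCAO contralateral libraries. All 6 MCAO libraries were above all 6 sham libraries. The libraries labelled Hdac2 ECKO had 7.47, 8.91 and 9.17 CPM, within the sham range, while those labelled Ezh2 ECKO had 30.9, 14.9 and 12.2 CPM and overlapped MCAO ipsilateral. By mean the order was MCAO contralateral (24.7 ± 4.26), MCAO ipsilateral (23.0 ± 8.53), Ezh2 ECKO (19.4 ± 10.1), Hdac2 ECKO (8.52 ± 0.918), sham ipsilateral (7.67 ± 3.01) and sham contralateral (6.73 ± 2.95), with the only gap between Ezh2 ECKO and Hdac2 ECKO. Angpt2 lies within Mcph1, a gene of the opposite strand, shares 0 exon bases with it in GENCODE M21, and was counted with a strand setting not given in the sources used here. Mcph1 was at 4.83 to 5.36 CPM in sham ipsilateral, 0.908 to 4.32 in sham contralateral, 5.12 to 7.89 in MCAO ipsilateral, 5.12 to 12.4 in MCAO contralateral, 0.711 to 15.6 in Ezh2 ECKO and 0.198 to 0.706 in Hdac2 ECKO libraries. Its part in the Angpt2 counts was not tested.

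Angpt1 (chromosome 15, 42424723 to 42676977, minus strand) was near the bottom of what these libraries measure, with 6 to 158 counts per library. It stood at 0.495, 2.19 and 0.830 CPM in sham ipsilateral, 1.12, 3.03 and 0.144 in sham contralateral, 3.60, 0.265 and 1.34 in MCAO ipsilateral and 1.70, 1.83 and 0.728 in MCAO contralateral libraries. Under the Hdac2 ECKO label it stood at 4.76, 0.361 and 0.206 CPM, and under the Ezh2 ECKO label at 0.216, 1.62 and 0.615 CPM. Every group overlapped every other, and replicates of the same group lay far apart. The 10 pericyte and smooth muscle markers, genes of the cells that are the usual source of angiopoietin-1, summed to 106 to 165 CPM in sham ipsilateral, 103 to 201 in sham contralateral, 40.2 to 104 in MCAO ipsilateral, 17.6 to 68.1 in MCAO contralateral, 22.5 to 70.3 in Hdac2 ECKO and 26.9 to 169 in Ezh2 ECKO libraries. Between 0 and 3 of the 10 were at 0 in a library, and Pdgfrb, a defining pericyte gene, was at 0 in 1 library and at most 4.48 CPM. Their part in the Angpt1 and Tek values was not tested. Angpt1 also shares 737 exon bases with the annotated gene Gm17473, so its counts are uncertain.

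Angptl4 (chromosome 17, 33773750 to 33781830, minus strand) was tight in sham ipsilateral libraries, at 6.68, 6.60 and 7.06 CPM, and stood at 25.1, 41.1 and 16.4 CPM in MCAO ipsilateral libraries, with no overlap. Contralateral libraries had 11.4, 10.5 and 6.48 CPM in sham and 12.1, 25.7 and 11.0 CPM in MCAO, which overlapped. The libraries labelled Hdac2 ECKO spread from 2.59 over 5.75 to 18.6 CPM and overlapped MCAO ipsilateral. Those labelled Ezh2 ECKO had 0.539, 7.57 and 9.00 CPM, all below MCAO ipsilateral, and the first of these rests on 20 counts. By mean the order was MCAO ipsilateral (27.5 ± 12.5), MCAO contralateral (16.3 ± 8.22), sham contralateral (9.45 ± 2.61), Hdac2 ECKO (8.98 ± 8.48), sham ipsilateral (6.78 ± 0.248) and Ezh2 ECKO (5.70 ± 4.53), and neighbours overlapped.

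Foxo1 (chromosome 3, 52268336 to 52353221, plus strand) stood at 92.2, 106 and 134 CPM in sham ipsilateral and 64.3, 59.5 and 90.4 CPM in MCAO ipsilateral libraries. The contralateral libraries had 111, 104 and 89.2 CPM in sham and 62.2, 74.3 and 81.7 CPM in MCAO. Neither side overlapped, but over both sides the highest MCAO library (90.4 CPM) exceeded the lowest sham library (89.2 CPM). Hdac2 ECKO libraries had 117, 83.0 and 64.7 CPM and Ezh2 ECKO libraries had 90.6, 147.5 and 63.9 CPM, and both groups overlapped every other group (means 88.2 ± 26.5 and 101 ± 42.7). Foxo1 shares 674 exon bases with the annotated gene Gm20402.

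To see the ligand against its receptor within a library, the CPM per kb of Angpt2 was expressed as a percentage of that of Tek. The ratio was 1.53% ± 0.349 in sham ipsilateral and 1.33% ± 0.379 in sham contralateral libraries (SD, n = 3 each). It was 8.04% ± 2.29 in MCAO ipsilateral and 8.07% ± 1.72 in MCAO contralateral libraries. Every MCAO library (5.91% to 10.5%) lay above every sham library (0.915% to 1.94%). Under the Hdac2 ECKO label it was 1.75% ± 0.440, from 1.46% to 2.25%, below all MCAO libraries, and under the Ezh2 ECKO label it was 3.54% ± 1.86, from 2.24% to 5.66%, also below them. The ratio of Ptprb to Tek moved less, at 57.1% ± 6.46 in sham ipsilateral, 73.1% ± 7.43 in MCAO ipsilateral, 63.1% ± 5.25 in Ezh2 ECKO and 65.5% ± 13.5 in Hdac2 ECKO libraries. On the contralateral side it was 57.2% ± 1.72 in sham and 74.0% ± 3.37 in MCAO libraries. Every MCAO library of both sides (68.2% to 81.6%) still lay above every sham library (49.7% to 61.7%). The ratio of Tie1 to Tek was 17.6% ± 5.37 in sham ipsilateral and 25.6% ± 10.0 in MCAO ipsilateral, which overlapped, and 11.5% ± 1.33 and 10.1% ± 1.50 in Hdac2 ECKO and Ezh2 ECKO, where all 6 libraries lay below the 6 MCAO libraries. These ratios are descriptions with no test, and a ratio shows unequal change and not which gene changed.

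**Figure D2:**
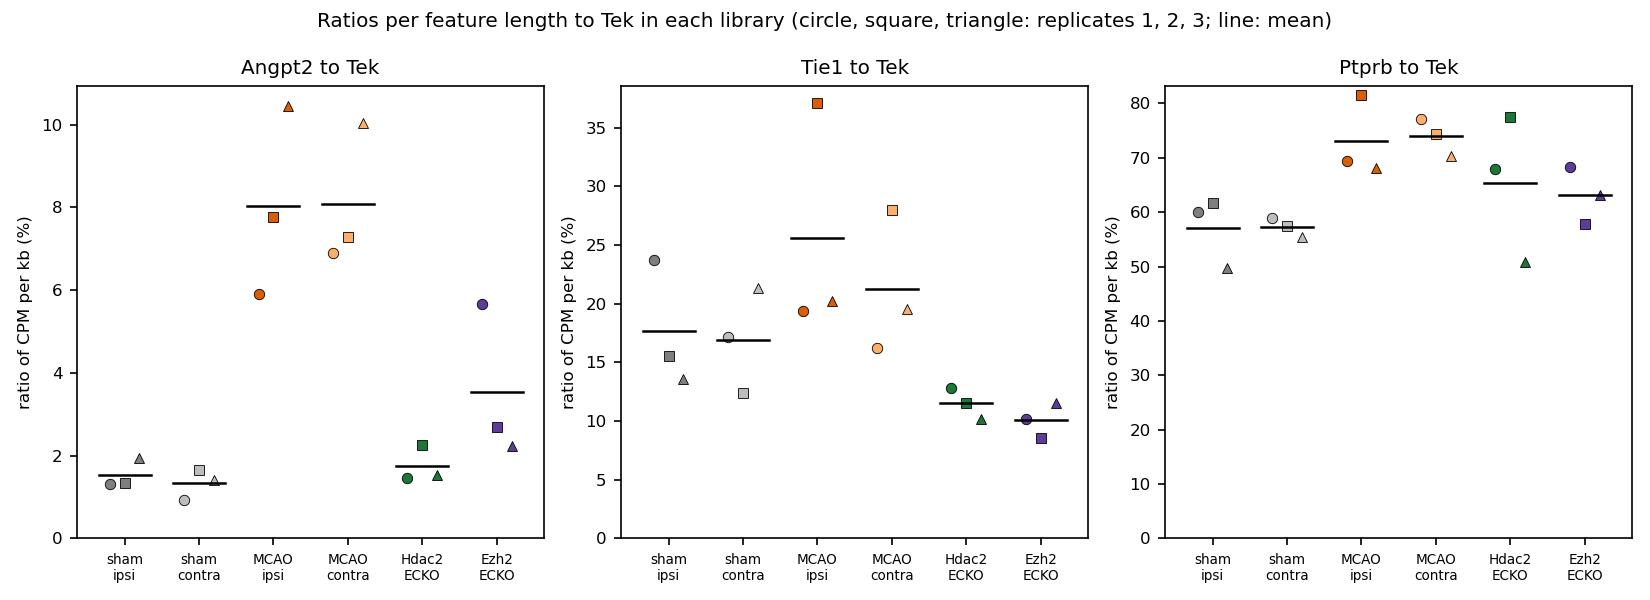
Ratio of CPM per kb of Angpt2, Tie1 and Ptprb to that of Tek, in percent, in each library by group. Circles, squares and triangles are replicates 1, 2 and 3, lines are means of 3 libraries, and axes start at 0. The Angpt2 to Tek ratio is 5.91% to 10.5% in the 6 MCAO libraries and at most 1.94% in the 6 sham libraries.

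Occlusion was tested first on the injured side, as MCAO ipsilateral against sham ipsilateral. Angpt2 was 3.00-fold and Angptl4 4.06-fold as high, and Tek was at 0.585 of its sham level, but 0 of the 7 members passed an adjusted p-value of 0.05. The test, edgeR's quasi-likelihood F-test with Benjamini-Hochberg adjustment over 17094 genes, called 0% of all genes here. The log2 fold change was 1.58 ± 0.51 for Angpt2 (SE, adjusted p 0.559), 2.02 ± 0.79 for Angptl4 (0.640), −0.77 ± 0.29 for Tek (0.630), −0.63 ± 0.34 for Foxo1 (0.717) and −0.42 ± 0.28 for Ptprb (0.761). Tie1, at −0.30 ± 0.30, and Angpt1, at 0.56 ± 1.29, were within about their own error. At an unadjusted p under 0.05 there were 3 members (Tek, Angpt2 and Angptl4), against 7.08% of all genes. The groups did not overlap in 5 of 7 members, against 27.7% of all genes tested, with Angpt2 and Angptl4 higher and Tek, Ptprb and Foxo1 lower after occlusion. The members' median log2 fold change was −0.30, against −0.09 over all genes. Voom with sample weights called Tek, Foxo1, Angpt2 and Angptl4 (adjusted p 0.0140 to 0.0415), and it called 1273 genes in all where edgeR called 0, while a fit of only these groups called Angptl4 alone (0.0412).

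On the contralateral side, MCAO against sham gave the same direction for the 6 members other than Angpt1, again with 0 of 7 called, against 0% of all genes. Angpt2 was 3.67-fold as high, or 1.87 ± 0.52 in log2 (SE, with an adjusted p of 0.920), and it ranked 24 by p-value among the 17094 genes. Tek was at −0.67 ± 0.29 (0.920) and Foxo1 at −0.48 ± 0.34 (0.920). Angptl4 was at 0.78 ± 0.76, Ptprb at −0.29 ± 0.28 and Tie1 at −0.34 ± 0.30. The groups did not overlap in 3 of 7 members (Tek and Foxo1 lower, Angpt2 higher), against 9.65% of all genes, and 2 members (Tek and Angpt2) had an unadjusted p under 0.05, against 4.41%. DESeq2 called Angpt2 on this side (log2 fold change 2.03, adjusted p 0.0134). Angpt1 was at −0.01 ± 1.29, and its sign turned with RLE scaling and with DESeq2 (0.14 in both).

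No member differed between the sides of the brain past the threshold. For MCAO ipsilateral against MCAO contralateral the test called 0 of 7 members and 0% of all genes, with 0 members and 3.08% of genes at an unadjusted p under 0.05, and in 0 of 7 members were the groups without overlap, against 5.37%. The log2 difference was −0.10 ± 0.50 for Angpt2 and −0.13 ± 0.29 for Tek (SE; both had an adjusted p of 1). The largest side difference was that of Angptl4, 0.76 ± 0.76 (1). Between the sham sides, 0 of 7 members were called or free of overlap, against 0% and 15.4% of genes, with 0 members and 1.85% at an unadjusted p under 0.05. Whether the effect of occlusion differed between the sides was tested as an interaction, which also called 0 of 7 members and 0% of genes (unadjusted, 0 members and 3.38% of genes). It was −0.29 ± 0.71 for Angpt2 (adjusted p 0.967) and 1.24 ± 1.08 for Angptl4 (0.941), errors that would hide sizeable side differences.

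Over both sides together, Angpt2 was 3.31-fold as high in the 6 MCAO as in the 6 sham libraries. Its log2 fold change was 1.73 ± 0.36 (SE) and its adjusted p 0.0616, just outside the threshold, at rank 30 by p-value. Tek was at −0.72 ± 0.21 (0.185), Angptl4 at 1.40 ± 0.55 (0.397), Foxo1 at −0.56 ± 0.24 (0.463), Ptprb at −0.36 ± 0.20 (0.627) and Tie1 at −0.32 ± 0.21 (0.717). edgeR thus called 0 of 7 members, against 0.152% of all genes, while 4 members had an unadjusted p under 0.05 against 9.09%. Angpt2 and Tek were without overlap between 6 and 6 libraries, 2 of 7 members against 1.42% of all genes. The call for Angpt2 rested on the settings. It passed with RLE scaling (adjusted p 0.0370), with the receptor background as a covariate (0.0324), with only the 4 groups compared (0.0489), with DESeq2 (3.17e-05) and with voom (0.00121), where Tek passed too (0.00171). Without MCAO contralateral replicate 1, the library of high background, Angpt2 (0.0237) and Tek (0.0409) both passed, and without Ezh2 ECKO replicate 1, 2 or 3 Angpt2 passed (0.0413, 0.0407 and 0.0463). Without both libraries of high background the log2 fold changes were 1.67 for Angpt2 (0.0188) and −0.85 for Tek (0.0243). The test counts the sides as separate samples, which makes its p-values too small if the sides share mice, and with both sides of a number summed 0 members were called.

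**Figure D3:**
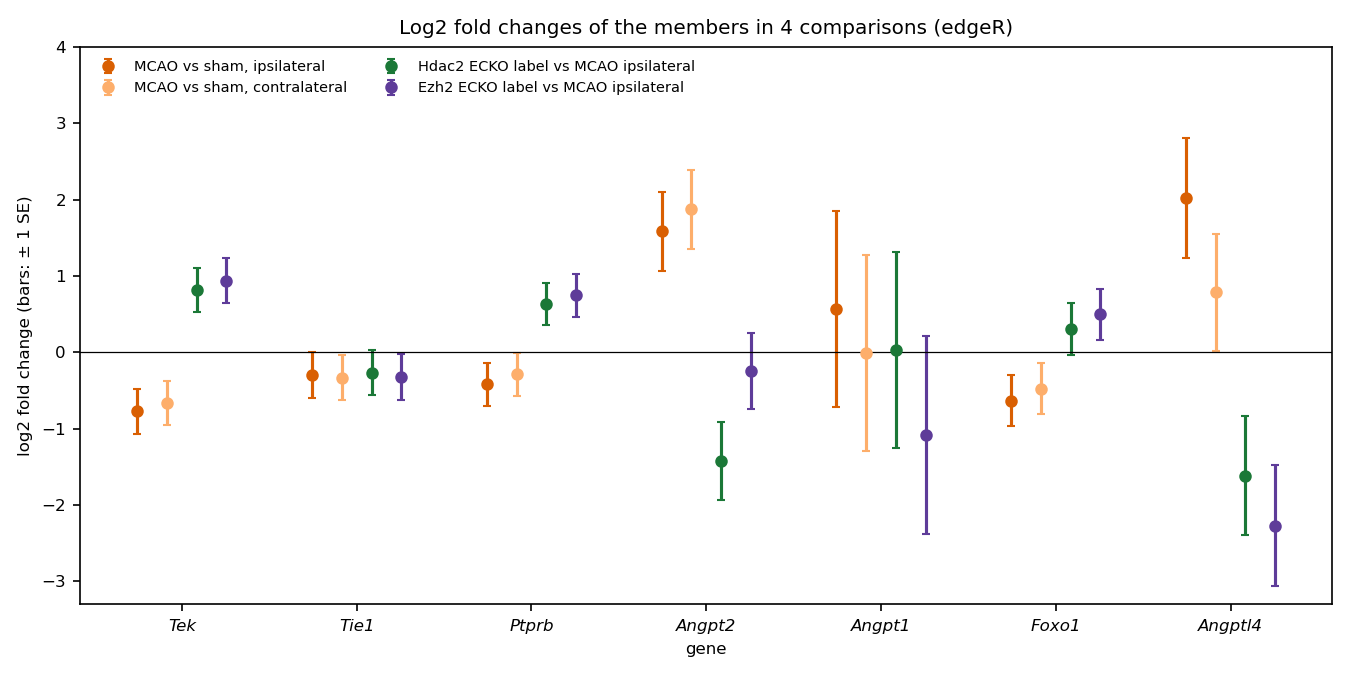
Log2 fold change of each member (points) with 1 standard error either way (bars) in 4 comparisons, from edgeR on 3 against 3 libraries. Angpt2 is above 0 for MCAO against sham on both sides (1.58 and 1.87), while Tek is below 0 there (−0.77 and −0.67) and above 0 for both ECKO labels against MCAO ipsilateral (0.81 and 0.94). None of the points passed an adjusted p-value of 0.05.

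The libraries labelled Hdac2 ECKO were compared with MCAO ipsilateral libraries of wild-type mice. Angpt2 stood at 0.371 of its MCAO level, Tek at 1.76-fold and Ptprb at 1.55-fold, each with no overlap between the groups. The log2 fold changes were −1.43 ± 0.51 for Angpt2 (SE, adjusted p 0.417), 0.81 ± 0.29 for Tek (0.417), 0.63 ± 0.28 for Ptprb (0.479) and −1.62 ± 0.78 for Angptl4 (0.505). Tie1 (−0.27 ± 0.30), Foxo1 (0.31 ± 0.34) and Angpt1 (0.03 ± 1.28) were closer to 0. The test called 0 of 7 members, against 0.0117% of all genes, and 4 members had an unadjusted p under 0.05, against 9.85%. The groups did not overlap in 3 of 7 members, against 19.9% of genes. Both comparisons of ECKO libraries share their MCAO ipsilateral libraries with each other and with that of occlusion and sham, which favours opposite signs there. None of the settings tried called a member here. The 5 red cell genes summed to 49294 to 297849 CPM in the Hdac2 ECKO libraries against 38267 to 65445 CPM in MCAO ipsilateral libraries, and their part in the members' values was not tested.

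In the libraries labelled Ezh2 ECKO, Tek stood at 1.92-fold and Ptprb at 1.68-fold of MCAO ipsilateral, and Angptl4 at 0.207 of it. The log2 fold changes were 0.94 ± 0.29 for Tek (SE, adjusted p 0.0907), 0.75 ± 0.28 for Ptprb (0.154), −2.27 ± 0.79 for Angptl4 (0.131) and −0.32 ± 0.30 for Tie1 (0.530). Angpt2 was at −0.25 ± 0.50 (0.794), Foxo1 at 0.50 ± 0.34 (0.406) and Angpt1 at −1.08 ± 1.30 (0.640). The test called 0 of 7 members, against 1.46% of all genes, with 3 members at an unadjusted p under 0.05 against 19.2%, and 4 of 7 without overlap (Tek and Ptprb higher, Tie1 and Angptl4 lower) against 29% of genes. DESeq2 called Tek (0.0178) and Ptprb (0.0386). Tek also passed without MCAO contralateral replicate 1 (0.0317) and without both libraries of high background (0.0446), and without Ezh2 ECKO replicate 1, the library of 20 counts, Angptl4 was at −1.73. The red cell genes summed to 70.1 to 671 CPM in these libraries, below all others, and their part was again not tested.

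Both ECKO groups were also set against each other. Angpt2 was lower in every Hdac2 ECKO library than in every Ezh2 ECKO library, with a log2 difference of −1.18 ± 0.51 (SE; the adjusted p was 0.384), and it was the only member without overlap, 1 of 7 against 12.1% of genes. Tek differed by −0.13 ± 0.29 (0.882), Ptprb by −0.11 ± 0.28 (0.892) and Angptl4 by 0.65 ± 0.76 (0.797). The test called 0 of 7 members, against 0.123% of all genes, with 1 member at an unadjusted p under 0.05 against 11.2%. The Angpt2 difference between the labels thus missed the threshold.

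Feature length moved with several of these differences. Among the 7814 genes that averaged 10 CPM or more, the median log2 fold change of MCAO against sham ipsilateral ran from 0.64 in the shortest quartile over 0.25 and −0.07 to −0.37 in the longest. For Ezh2 ECKO against MCAO ipsilateral it ran the other way, from −0.73 over −0.22 and 0.10 to 0.44, and for Hdac2 ECKO from −0.25 to 0.23. MCAO against sham contralateral had the flattest course of these 4, from 0.06 to −0.11. Ptprb, at 13333 bases, and Foxo1, at 8665 bases, belong to the longest quartile. On the injured side Ptprb (−0.42) lay close to its median of −0.37, and Foxo1 (−0.63) lay below it. For MCAO against sham contralateral, Ptprb (−0.29) and Foxo1 (−0.48) both lay below the median of −0.11. Under the Hdac2 and Ezh2 ECKO labels Ptprb (0.63 and 0.75) lay above the medians of 0.23 and 0.44, and Foxo1 (0.31 and 0.50) nearer to them. Tek, at 4712 bases, and Tie1, at 4917 bases, fall in the next quartile. There Tek stood below the median of −0.07 on the injured side (−0.77) and, in Ezh2 ECKO, at 0.94 above the median of 0.10. Angpt2, at 3690 bases, and Angptl4, at 3541 bases, fall in the second quartile, and on the injured side both (1.58 and 2.02) stood above its median of 0.25. The part of length in the members' values was not tested.

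**Figure D4:**
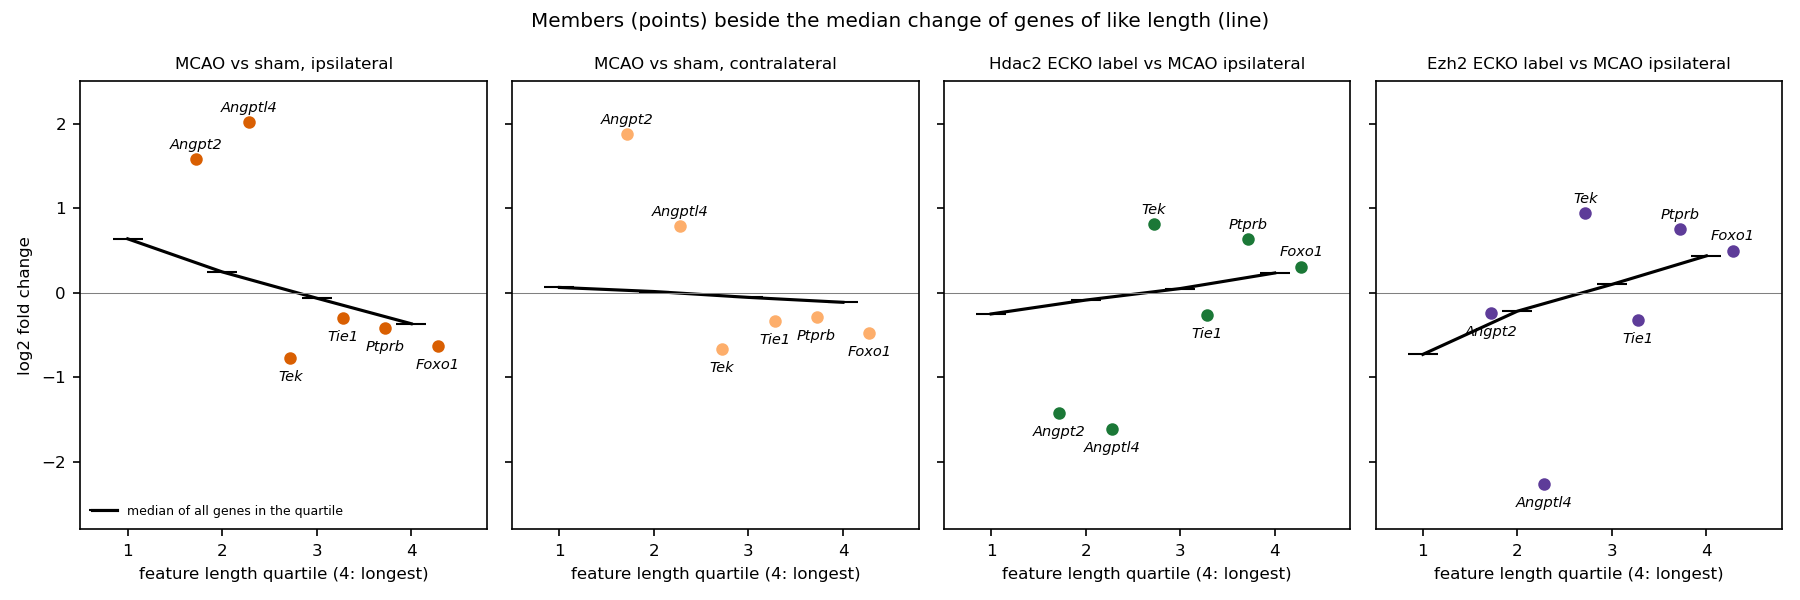
Log2 fold change of the 6 members that averaged 10 CPM or more (points) beside the median of all such genes in each quartile of feature length (line), in 4 comparisons. Quartile 4 holds the longest genes. The median falls from 0.64 to −0.37 across quartiles for MCAO against sham ipsilateral. Ptprb lies near it there, Foxo1 lies below it, and Angpt2, Angptl4 and Tek lie further away from it.

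Endothelial and other cell markers were read beside these results. The 10 endothelial markers summed to 9740 to 12674 CPM in sham ipsilateral and 15893 to 26218 CPM in MCAO ipsilateral libraries. They summed to 11465 to 19545 CPM in sham contralateral and 10984 to 25024 CPM in MCAO contralateral libraries, which overlapped, to 10148 to 15171 CPM in Hdac2 ECKO and to 6707 to 10889 CPM in Ezh2 ECKO libraries. Within the list the direction was mixed on the injured side after occlusion, where Kdr (−0.98), Erg (−0.37), Cdh5 (−0.28) and Flt1 (−0.21) had negative log2 fold changes and the other 6 positive ones, and 0 of the 10 were called. For Ezh2 ECKO against MCAO ipsilateral the direction was mixed too. Ly6c1 (−2.03), Cldn5 (−1.58), Esam (−1.17), Slc2a1 (−1.10) and Pecam1 (−0.69) were lower. Kdr (1.33), Erg (0.95), Cdh5 (0.44), Flt1 (0.17) and Mfsd2a (0.08) were higher. Only Ly6c1 was called there by edgeR (adjusted p 0.0291). None of the 10 endothelial markers was at 0 in any library. The 10 microglia and macrophage markers summed to 34.2 to 43.7 CPM in sham ipsilateral and 86.1 to 91.2 CPM in MCAO ipsilateral libraries, with 0 to 4 of the 10 at 0 in a library of these groups. They summed to 46.3 to 63.9 CPM in sham contralateral and 37.9 to 93.8 CPM in MCAO contralateral libraries, which overlapped. Hdac2 ECKO libraries had 61.2 to 80.8 CPM and Ezh2 ECKO libraries 49.3 to 63.9 CPM. In bulk libraries, fewer cells of a type and less RNA per cell cannot be told apart, and the part of these cells in the members' values was not tested.

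Members were compared with one another over the 18 libraries, on log2 CPM. Tek and Ptprb ran together, with a Pearson r of 0.90, and of 0.79 once the group means were removed. Tek and Angptl4 ran opposite (−0.67), and less so within groups (−0.31). Tek and Angpt2 were at −0.42 over all libraries and at 0.47 within groups, so their opposite course lay between groups. Tek and Tie1, the paired receptors, were at −0.03. Among 7813 other genes averaging 10 CPM or more, those most like Tek were Adam10 (0.92), a membrane protease, Chp1 (0.91) and Sema6a (0.90), a transmembrane semaphorin. Those most like Ptprb were Sptbn1 (0.93), which encodes a spectrin of the membrane skeleton, Itprid2 (0.91) and again Adam10 (0.91). The genes most like Foxo1 were 2510009E07Rik (0.90), Pou2f1 and Nanos1 (0.82 each), and those most like Angptl4 were 3110040N11Rik (0.82), Tor2a and Fmo1 (0.81 each). Tie1 and Angpt2 had no such close company, with Cyb5b (0.75), Golm1 (0.75) and Slc52a3 (0.74) nearest to Tie1 and Gm10320 (0.75), Acacb (0.64) and Myof (0.63) nearest to Angpt2. The libraries share depth, background and length trends, so these r values are descriptions.

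Other genes of the pathway were taken from 4 lists. Of 21 partners of TIE2 signalling, 1 passed the test in any of the 9 comparisons. This was Akt1, a kinase downstream of TIE2, which fell in the libraries labelled Ezh2 ECKO to 19.1, 5.15 and 8.39 CPM, against 34.2, 51.4 and 42.4 in MCAO ipsilateral libraries, with no overlap. Its log2 fold change was −1.97 ± 0.47 (SE, adjusted p 0.0434). Over 14 other settings it ran from −2.66 to −1.53, with adjusted p-values from 6.26e-04 to 0.212. Leaving out MCAO ipsilateral replicate 1, 2 or 3 (0.0978, 0.212 and 0.0547) or Ezh2 ECKO replicate 2 or 3 (0.108 and 0.138) ended the call, as did the receptor background as a covariate (0.112), the replicate block (0.0596), a fit of only these groups (0.0640) and no filter (0.0537). In that comparison 13 of the 21 partners were without overlap, against 29% of all genes, and their median log2 fold change was 0.44, against 0.17 over all genes. Kdr, the receptor of VEGF, was named after its values were seen. It was at 388 ± 88.3 CPM in sham ipsilateral, 196 ± 84.3 in MCAO ipsilateral, 493 ± 92.9 in Ezh2 ECKO and 333 ± 42.5 in Hdac2 ECKO libraries (SD, n = 3 each), with an adjusted p of 0.587 for occlusion on the injured side and 0.0527 for Ezh2 ECKO.

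Of 12 FOXO factors and endothelial FOXO1 targets, 0 were called in any comparison, and their median log2 fold change on the injured side after occlusion was 0.18, against −0.09 over all genes. Against MCAO ipsilateral, their median was −0.65 in Hdac2 ECKO (0.11 over all genes) and 0.48 in Ezh2 ECKO (0.17 over all genes). Mxi1, which encodes a MYC antagonist, stood at 49.9 ± 2.07 CPM in sham ipsilateral and 54.4 ± 8.30 in MCAO ipsilateral libraries. It stood at 36.2 ± 10.7 CPM in Hdac2 ECKO and 65.5 ± 24.7 in Ezh2 ECKO libraries. Sirt1, which encodes a deacetylase that acts on FOXO proteins, stood at 40.6 ± 7.22 CPM in sham ipsilateral and 30.0 ± 4.67 in MCAO ipsilateral libraries. In Hdac2 ECKO and Ezh2 ECKO libraries Sirt1 was at 62.8 ± 23.0 and 58.7 ± 20.7 CPM. Of 7 other angiopoietin-like ligands, 5 had enough counts to test and 0 were called. Angptl6 stood at 3.46 ± 1.28 CPM in sham ipsilateral, 6.21 ± 1.01 in MCAO ipsilateral and 1.27 ± 1.07 in Ezh2 ECKO libraries, and Angptl2 at 0.0675 ± 0.0587, 4.60 ± 5.04 and 0.818 ± 0.938 CPM, where 10.0 CPM in a single MCAO library carried the mean.

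The list around Angptl4 held 13 genes of lipoprotein lipase, PPAR and hypoxia signalling, of which 0 were called. The hypoxia factor genes Epas1 and Hif1a, the most abundant of them, stood at 1042 ± 79.1 and 118 ± 44.9 CPM in sham ipsilateral and at 1061 ± 93.6 and 126 ± 20.6 CPM in MCAO ipsilateral libraries, changes of 0.03 ± 0.28 and 0.10 ± 0.40 on the log2 scale (SE). Plin2, which encodes a coat protein of lipid droplets, and Lpl, which encodes the lipase that ANGPTL4 inhibits, were chosen after their values were seen. Both had no overlap between MCAO and sham ipsilateral libraries. In the whole list 3 of the 13 genes were without overlap in this comparison, against 27.7% of all genes tested. The list's median log2 fold change there was 0.03, against −0.09 over all genes. For MCAO against sham contralateral the list's median was −0.25, against 0.17 over all genes. In that comparison 0 of the 13 genes were without overlap, against 9.65% of all genes. Plin2 stood at 80.0 ± 27.8 against 25.7 ± 3.03 CPM, a log2 fold change of 1.64 ± 0.48 (adjusted p 0.509), and Lpl at 6.35 ± 3.28 against 1.08 ± 0.107 CPM, or 2.55 ± 1.13 (0.670). In Hdac2 ECKO and Ezh2 ECKO libraries Plin2 was at 33.6 ± 4.11 and 32.6 ± 6.61 CPM, below all MCAO ipsilateral libraries (adjusted p 0.426 and 0.145).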

How the data were processed

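The authors deposited 1 table of counts per gene for 18 libraries. Its name calls the counts normalized, but they are whole numbers with unequal totals, and even numbers make up 77.3% to 89.4% of counts between 1 and 20, so they were treated as unscaled counts. Why even numbers prevail was not tested, and counts may exceed the number of independent observations. Libraries were made with a SMART-Seq v4 PLUS kit and sequenced as read pairs, per the labels' protocols. FastQC, cutadapt, STAR, featureCounts, DESeq2 and mm10 are named, without versions or roles, per the submitters' processing notes, and strand setting and annotation are not given in the sources used here. Gene starts in the deposited table match GENCODE M21 on GRCm38. The number of value columns that matched no sample was 0.

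Genes with at least 10 counts in at least 3 libraries were tested with edgeR 4.0.16 (R 4.3.3, TMM scaling, quasi-likelihood F-test) in a single fit of 6 group means, which has 12 residual degrees of freedom, with Benjamini-Hochberg adjustment over 17094 genes and a threshold of 0.05. The SE is the log2 fold change divided by the square root of F. CPM is the count per 1e+06 of the TMM-scaled total, and CPM per kb divides by the deposited feature length, which counts no sharing between genes. The fit was run on simulated counts with known changes in a single group, as a check of the code. Those counts lacked the library differences in length trend, red cell genes and receptor background seen here. The check therefore does not show how the fit performs on these libraries. Groups and replicate numbers come from the sample titles. Alternatives were RLE scaling, DESeq2 1.42.0, voom in limma 3.58.1 with sample weights, no filter, a replicate block, only the groups compared, the receptor background as covariate, both sides summed, and each library left out, and, chosen after seeing the data, leaving out both libraries above 1000 CPM of receptor background. All members are named, from each list the called genes or else the 2 of highest mean CPM, and for each member at 10 CPM or more the 3 genes of highest Pearson r on log2 CPM with a prior count of 2. Members and lists were chosen with earlier results of these data known.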

Additional observations from a re-analysis of the deposited data

How the results depend on the processing

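For the 6 members other than Angpt1, 31 fold changes (occlusion on each side and over both, each ECKO label against MCAO ipsilateral, and Angpt2 between both labels) had 476 alternative values, with libraries left out only from the groups compared, of which 453 kept their direction and side of the threshold, 22 moved past it and 1 reversed. Leaving out libraries of other groups gave 4 further calls, 3 of Angpt2 over both sides and 1 of Tek in Ezh2 ECKO. The reversal was Angpt2 in Ezh2 ECKO against MCAO ipsilateral without MCAO ipsilateral replicate 3, where leaving out single libraries gave −0.75 to 0.054. edgeR's 0 called members became 4 with voom and 1 with only the groups compared for MCAO against sham ipsilateral, and 1 with DESeq2 on the contralateral side. Over both sides they became 1 with RLE scaling, DESeq2, only the groups compared or the background covariate, 5 with voom, 2 without both libraries of high background, and 0 to 2 with single libraries left out. For Ezh2 ECKO they became 2 with DESeq2, 1 without those libraries, and 0 to 1 with single libraries left out. The other comparisons had 0 called members in every setting run.

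Angpt1 had no stable direction, with 15 of 77 alternative values reversed. For the contralateral side its log2 fold change was 0.14 with RLE scaling, 0.14 with DESeq2, 0.83 with voom, 0.27 with the replicate block and 0.13 with only the groups compared, and −0.56 to 1.16 with single libraries left out. For Hdac2 ECKO it was −1.03 with voom, −0.41 with the replicate block, and −2.64 to 1.14 with single libraries left out. The ranges were −0.55 to 1.39 for the ipsilateral side, −0.28 to 0.86 over both sides and −2.08 to 0.029 for Ezh2 ECKO. The cause was not tested.

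The count of all genes called moved far more. It went from 0 to 69 with DESeq2 and 1273 with voom for MCAO against sham ipsilateral, and from 26 to between 4 (replicate block) and 2199 (voom) over both sides, where leaving out single libraries gave 0 to 266, the highest without MCAO contralateral replicate 1. It went from 2 to 244 with DESeq2 for Hdac2 ECKO, from 250 to between 12 (replicate block) and 1642 (DESeq2) for Ezh2 ECKO, and from 21 to between 4 (voom) and 659 (DESeq2) between both labels. RLE scaling shifted the median of all genes by 0.19 for Ezh2 ECKO and 0.13 for MCAO against sham contralateral.

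Deviations of same-numbered libraries from their group means correlated between the sides at −0.04 to 0.21 in sham and −0.17 to 0.27 in MCAO mice. Libraries of different numbers gave −0.25 to 0.18 in sham and −0.29 to 0.28 in MCAO mice. With 3 libraries per group, these values cannot tell whether the sides share animals. With the replicate block, 0 members were called in every comparison. Depth limits Angpt1 most, at 6 to 158 counts.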
